A study of Homo sapiens with 21 samples.

Results

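The samples described here are the 3 Dox libraries at 24 h and the 3 Dox libraries at 48 h, 6 of the 21 libraries of the series, and they were chosen by their labels for doxycycline and time. They are called the pulsed arm. All cells are H9, an established line of human embryonic stem cells, and all carry a transgene for wild-type GSX2 with a 2xFLAG tag under the doxycycline-inducible TRE3G promoter; the labels name no clone and no passage. Every group was differentiated in Essential 6 medium toward a fate like the lateral ganglionic eminence (LGE), with LDN193189, SB431542 and XAV939, then LDN193189 and SB431542, then IWP2 and Activin A. The Dox groups also received 100 ng/mL doxycycline for 12 h from day 10. Counted from the start of the treatment, their 24 h and 48 h collections lie 12 h and 36 h past its end. The NoDox libraries at 24 h and 48 h, 3 of each, share the line, the transgene and the medium and serve as the uninduced arm over the same interval. Since no group received doxycycline without carrying the transgene, effects of the drug itself cannot be told apart from those of GSX2.

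GSX2 is a homeodomain transcription factor of ventricular zone progenitors in the embryonic LGE, the source of striatal projection neurons and of olfactory bulb interneurons. It acts in the mouse forebrain largely as a repressor of dorsal, pallial genes, and its loss lets pallial regulators spread into the LGE. DLX genes act with and after it on the way to GABAergic neurons. A pulse of such a factor followed by a wait asks which genes return when the factor is gone and which do not.

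Poly(A)-selected RNA was made into directional libraries and counted per gene. Total counts were 21.9 to 24.3 M at 24 h and 18.1 to 20.9 M at 48 h in the pulsed arm. Levels are given as CPM, read counts scaled to a common library size with TMM factors, and a mean is given ± SD with n = 3. Changes are log2 fold changes ± an approximate standard error, from edgeR's quasi-likelihood F test with Benjamini-Hochberg adjustment over 19655 features, and "rose" or "fell" means an adjusted p below 0.05. The replicates of each group differed beyond sampling noise: the chi-square of a pair of libraries, divided by its degrees of freedom, was 1.83 to 4.7 at 24 h and 3.04 to 5.45 at 48 h. The labels do not say whether replicates were separate cultures, so the p-values reflect the scatter among these libraries, which may be technical. The RNA pool was more concentrated at 48 h: the 100 most abundant features held 18.3% to 19.1% of counts, against 15.4% to 15.7% at 24 h, and the TMM factors were 0.8906 to 0.9104 against 0.9996 to 1.01. In bulk RNA, fewer cells of a type and less RNA per cell cannot be told apart.

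The forebrain label was checked first. SIX3, a homeobox regulator of the anterior forebrain, stood at 388, 395 and 383 CPM at 24 h and 333, 319 and 302 CPM at 48 h, so it was present in every library. The pluripotency factors POU5F1 and NANOG were too low to be tested, with at most 5 reads in a library at 24 h and 2 at 48 h. DLX2, an LGE progenitor regulator, was present in every library, at 110, 82.3 and 71.7 CPM and then 121, 110 and 99.4 CPM. Its groups overlapped and its step did not pass the test (0.32 ± 0.25, adjusted p = 0.298). With the replicate number added to edgeR's fit as a block, it passed (0.34, adjusted p = 0.00465).

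The transgene was nearly gone at 48 h. It was counted at 13.6, 19.6 and 25.2 CPM at 24 h and 0.877, 0.955 and 0.97 CPM at 48 h, after 876 ± 114 CPM at 12 h, and fell by 4.37 ± 0.30 on the log2 scale (adjusted p = 1.32e-09). The 3 libraries at 48 h held 16, 18 and 16 transgene reads, all far below the 331, 451 and 558 reads at 24 h. The NoDox libraries at 48 h averaged 0.279 ± 0.218 CPM, and the gap between Dox and NoDox at 48 h did not pass the test (1.73 ± 0.73, adjusted p = 0.114). The count for the GSX2 gene (chromosome 4, 54099523 to 54102498, hg38) was 4.04, 5.48 and 9.31 CPM and then 2.03, 1.91 and 1.94 CPM. The groups did not overlap, and this count fell by 1.67 ± 0.33 (adjusted p = 0.000312). In the uninduced arm GSX2 stood at 12.7 ± 1.78 and 11.1 ± 1.92 CPM, so that at 48 h the pulsed libraries lay below it by 2.49 ± 0.31 on the log2 scale (adjusted p = 2.26e-05). The number of GSX2 reads for each transgene read was 0.292 to 0.398 at 12 h and 0.279 to 0.369 at 24 h, and 2.0 to 2.31 at 48 h. The count for GSX2 could hold transgene reads, which were not separated here. With the ratio at 24 h near that at 12 h, the fall of the GSX2 count cannot be told apart from that of the transgene.

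Between 24 and 48 h, 5782 features rose (29.4%) and 5793 fell (29.5%) in the pulsed arm, and 1215 and 1681 of them did so by at least 2-fold. The counts given below for gene lists in the pulsed arm are to be read against these shares. The median log2 fold change over all features tested was -0.02. Scaling by library totals alone moved that median to -0.17 and the split to 4103 higher and 7720 lower, so small steps are best read against it. The uninduced arm had fewer calls over the same interval, with 4224 features higher (21.5%) and 3909 lower (19.9%), of which 443 and 722 by at least 2-fold (2954 and 5368 under library totals alone). The test of the difference between the steps, pulsed minus uninduced, called 2491 features higher (12.7%) and 2573 lower (13.1%), or 1886 and 3190 under library totals alone. List counts given below for the uninduced arm and for the difference are to be read against the shares of the same test. Much of the step was common to both arms: 3025 features rose in both, 52.3% of those that rose with the pulse and 71.6% of those that rose without it, and 2813 fell in both, 48.6% and 72.0%. Opposite steps were fewer, with 253 features that fell in the pulsed arm and rose in the uninduced arm, and 157 the other way round.

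Set against NoDox at the same time, fewer features differed at 48 h than at 24 h. At 24 h, 3349 features were higher with Dox (17.0%) and 3316 lower (16.9%). At 48 h, 1814 were higher (9.23%) and 1757 lower (8.94%). The count of higher features at 48 h dropped to 1056 without Dox 48 h replicate 1 and to 1041 without NoDox 48 h replicate 2, and library totals alone gave 1017 higher and 2835 lower. Of the features lower with Dox at 24 h, 631 were still lower at 48 h, 19.0% of the list at 24 h and 35.9% of that at 48 h. Another 250 had crossed over and were higher at 48 h. They were 7.54% of the list at 24 h, below the 9.23% of all features that were higher at 48 h. Of those higher at 24 h, 607 were still higher (18.1% and 33.5%) and 229 were lower at 48 h. The latter were 6.84% of the list at 24 h, below the 8.94% of all features.

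Among genes that averaged at least 5 CPM in the higher of the Dox groups at 24 and 48 h and whose replicates did not overlap, the 15 largest increases were FSTL5, GPR149, CCSER1, TH, GRIA2, GREM1, WNT7A, ERBB4, PCDH9, ROBO2, DACH2, NXPH1, KCNA4, TMTC2 and MEIS1, with log2 steps from 4.32 for FSTL5 down to 2.92 for MEIS1. These genes were chosen for large pulsed steps, which the test of the difference shares. By that test the steps of all 15 exceeded those of the uninduced arm, by 2.20 to 3.81, a result that the choice favoured. MEIS1 and DACH2 encode transcription factors.

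TH, tyrosine hydroxylase, the rate-limiting enzyme of dopamine synthesis (chromosome 11, 2163929 to 2171815, hg38), stood at 13.8, 13.4 and 13.4 CPM at 24 h and 210, 151 and 153 CPM at 48 h. As the rule for these genes required, all 3 late libraries were above all 3 early ones, and the step was 3.66 ± 0.13 (adjusted p = 1e-15). In the uninduced arm TH went from 43 ± 3.33 to 60.6 ± 7.35 CPM, so the pulsed libraries crossed from below NoDox at 24 h (-1.67 ± 0.13) to above it at 48 h (adjusted p = 4.79e-09). ROBO2, a receptor for Slit guidance cues, crossed in the same way, from 8.98, 6.74 and 7.14 CPM to 64.3, 74.4 and 69.5 CPM (3.18 ± 0.12, adjusted p = 8.55e-17). NoDox held 39.9 ± 2.5 CPM of ROBO2 at 48 h. PCDH9, a protocadherin of neuronal contacts, went from 5.11, 4 and 4.61 CPM to 42.8, 40.1 and 44.7 CPM (3.21 ± 0.12) and ended above the 21.5 ± 2.48 CPM of NoDox by 0.99 ± 0.10. These 3 genes are among the 250 that were lower with Dox at 24 h and higher at 48 h.

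For other large risers the libraries at 48 h were not above NoDox by the test. WNT7A, a Wnt ligand of the developing forebrain, stood at 2.68, 1.04 and 1.13 CPM and then 13.9, 19.6 and 15.5 CPM (3.32 ± 0.32, adjusted p = 6.14e-08), and its gap to NoDox at 48 h did not pass the test (0.71 ± 0.26, adjusted p = 0.0677). ERBB4, a neuregulin receptor of migrating interneurons, went from 1.9, 1.3 and 1.67 CPM to 16.3, 16.1 and 16.4 CPM (3.31 ± 0.17), beside 19.2 ± 1.62 CPM in NoDox. GRIA2, an AMPA receptor subunit, went from 0.618, 0.391 and 0.769 CPM to 8.06, 6.26 and 8.12 CPM (3.65 ± 0.37). FSTL5, which encodes a follistatin-like secreted protein, had the largest step of these 15, from 0.577, 0.391 and 0.317 CPM to 8.44, 8.7 and 9.09 CPM (4.32 ± 0.24, adjusted p = 8.13e-15). It stayed below the 17.4 ± 2.92 CPM of NoDox at 48 h (-0.99 ± 0.14, adjusted p = 1.17e-05). GPR149, an orphan receptor, was also still below NoDox (-0.87 ± 0.22, adjusted p = 0.00894), while for TMTC2, KCNA4 and MEIS1 the gaps of 0.05, 0.14 and 0.07 did not pass.

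By the same rule, the 15 largest decreases were KDR, CER1, FOXI1, METTL7A, SELE, FAM181B, LRRC3B, L1TD1, NEUROD4, PUS7, MFAP4, MILIP, SUSD2, C10orf105 and C22orf46P, with log2 steps from -3.90 for KDR to -2.28 for C22orf46P. KDR, the receptor VEGFR2 (chromosome 4, 55078481 to 55125595, hg38), stood at 32.9, 41.9 and 39 CPM at 24 h and 2.25, 2.49 and 2.91 CPM at 48 h. The groups did not overlap, as the rule required, and the step was -3.90 ± 0.24 (adjusted p = 7.6e-12). KDR at 48 h differed from the 2.72 ± 0.962 CPM of NoDox by less than its error (-0.10 ± 0.31). CER1, a secreted antagonist of Nodal and BMP ligands, fell from 16, 14.3 and 14.8 CPM to 1.21, 0.796 and 1.09 CPM (-3.86 ± 0.27, adjusted p = 1.62e-12). It was still above NoDox at 48 h, where its libraries held 0.0531, 0 and 0.0523 CPM. SELE, E-selectin, fell from 13.6, 22.4 and 21.2 CPM to 1.59, 3.08 and 1.03 CPM (-3.30 ± 0.31), and for both CER1 and SELE the difference from the uninduced step did not pass (adjusted p = 0.591 and 0.205), the uninduced levels being at a few reads. L1TD1, an RNA-binding protein of pluripotent cells, fell from 60.1, 66.6 and 64.8 CPM to 8.33, 8.92 and 9.94 CPM (-2.82 ± 0.12, adjusted p = 3.71e-17). FAM181B fell from 17.8, 14.2 and 16.6 CPM to 1.75, 1.65 and 1.58 CPM (-3.28 ± 0.18). NEUROD4, a proneural bHLH factor, fell from 5.48, 6.83 and 7.28 CPM to 0.274, 1.43 and 1.33 CPM (-2.69 ± 0.31), but it also fell without the pulse (-1.69 ± 0.25), and the difference between the steps did not pass (adjusted p = 0.0869). KDR, L1TD1, FAM181B, METTL7A and LRRC3B were higher at 24 h with Dox than in any uninduced library of any time, and at 48 h none of their gaps to NoDox passed the test, the nearest being that of L1TD1 (0.38 ± 0.14, adjusted p = 0.0588).

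**Figure D1:**
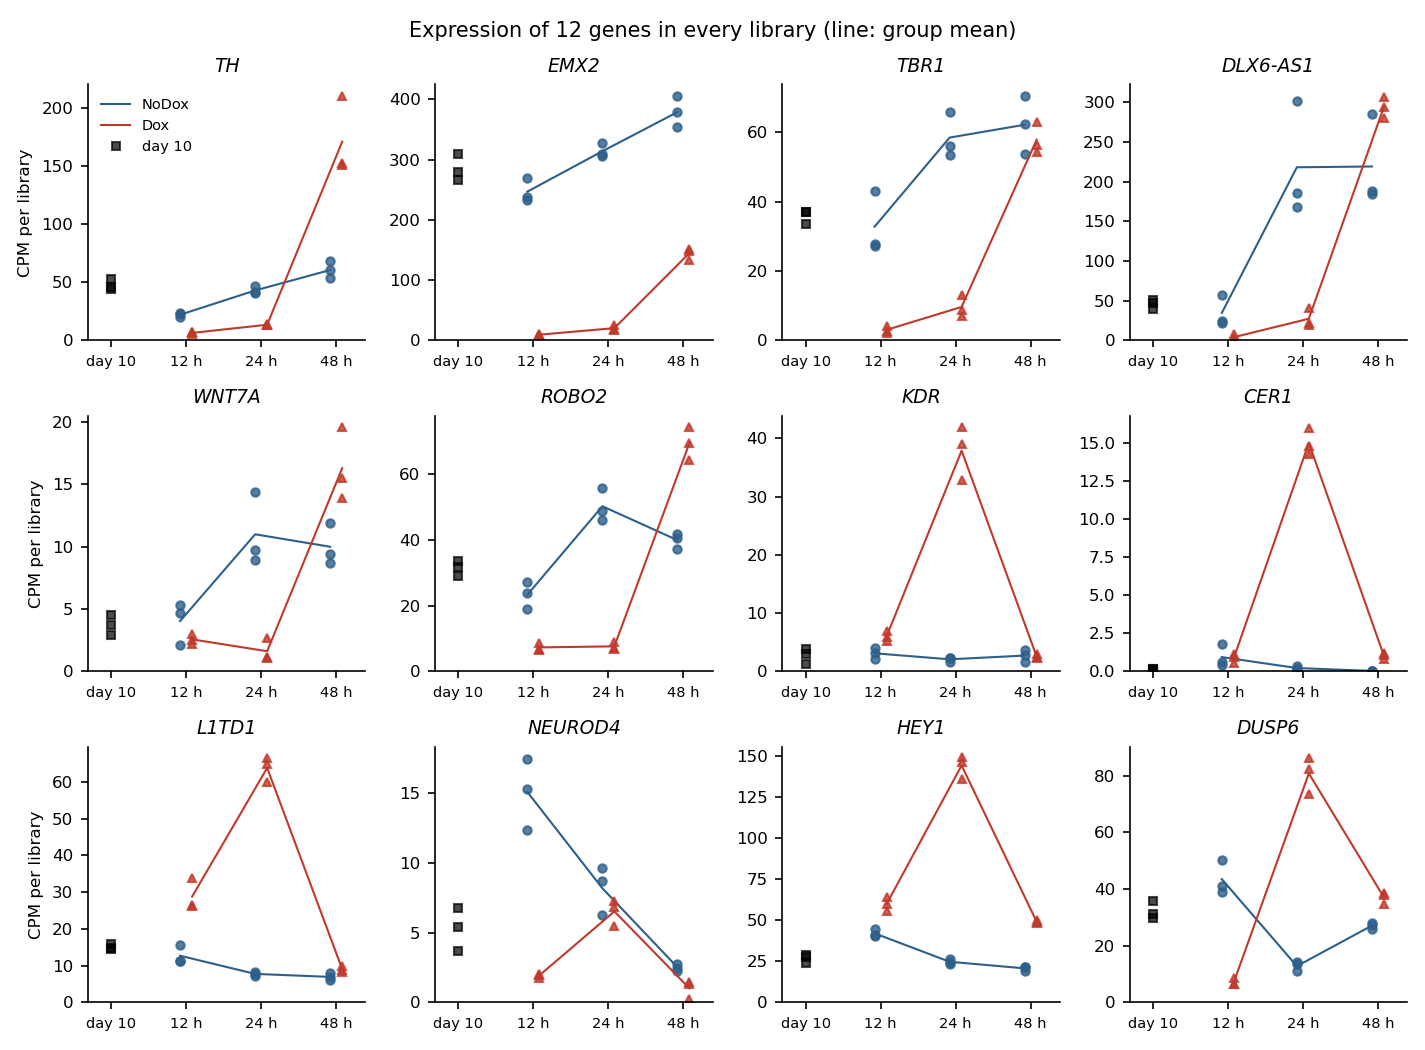
Level of 12 genes in every library, in CPM on linear axes that start at 0, against collection time. Black squares are day 10, blue circles NoDox and red triangles Dox, each point 1 library and each line the group means. TH, EMX2, TBR1, DLX6-AS1, WNT7A and ROBO2 are low with Dox at 12 and 24 h and higher at 48 h, with TH and ROBO2 ending above NoDox and EMX2 below it. KDR, CER1, L1TD1, HEY1 and DUSP6 peak at 24 h with Dox.

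**Figure D2:**
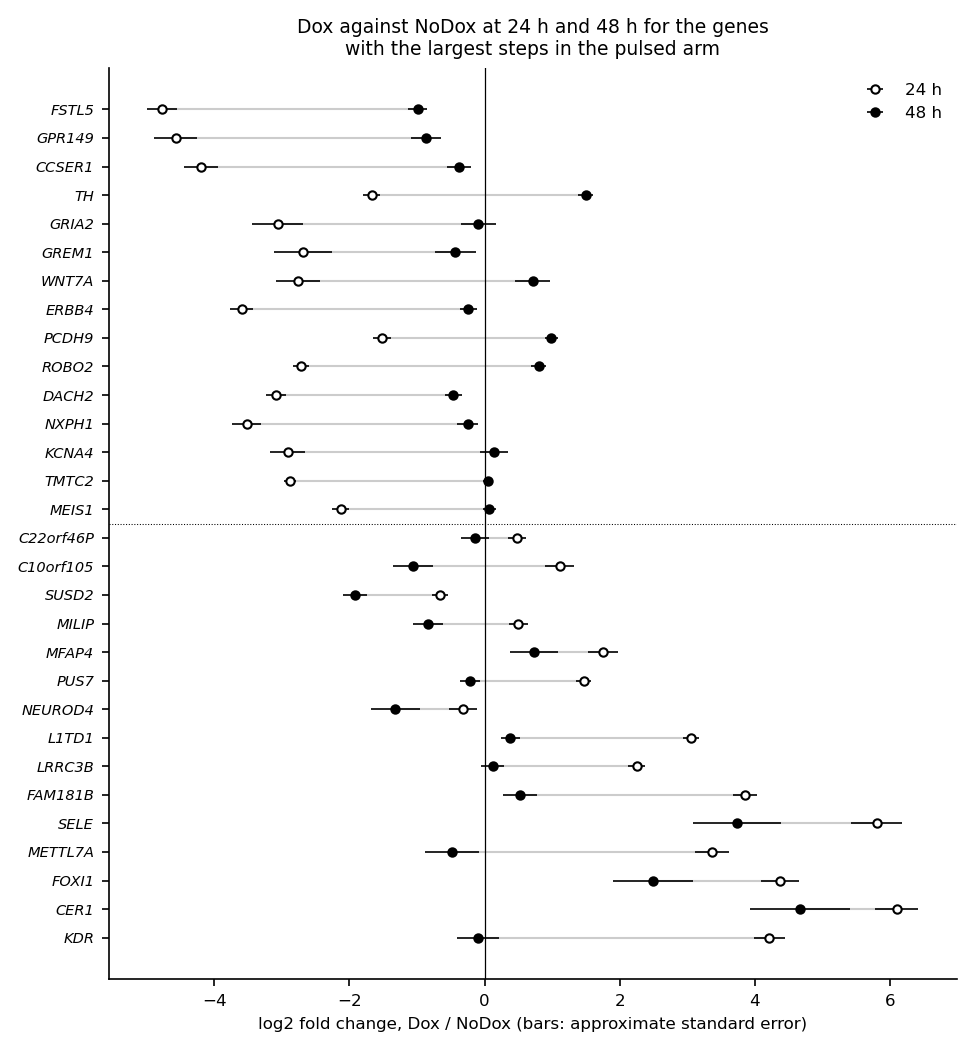
Log2 fold change of Dox against NoDox at 24 h (open circles) and at 48 h (filled circles) for the 15 largest increases (above the dotted line) and the 15 largest decreases (below it) of the pulsed arm, with bars for the approximate standard error. All 15 risers start below 0 at 24 h, and at 48 h TH, PCDH9 and ROBO2 lie right of 0 past the test. Choosing genes by large steps favours a low start.

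Dorsal pallial regulators, a class of genes that GSX2 largely represses in the mouse forebrain, moved both ways. Of 20 tested, 8 rose and 6 fell, with a median of 0.25, beside 29.4% higher and 29.5% lower among all features. Without the pulse 2 rose and 12 fell, with a median of -0.40, beside 21.5% and 19.9% of all features. The difference between the steps was positive for 10 and negative for 2, beside 12.7% and 13.1% of all features. EMX2, a homeobox regulator of the pallium (chromosome 10, 117542445 to 117549546, hg38), stood at 25.1, 18.8 and 17.3 CPM at 24 h and 152, 149 and 134 CPM at 48 h. The groups were wide apart, with a step of 2.83 ± 0.10 (adjusted p = 2.03e-17), but the late libraries were still below the 379 ± 25.5 CPM of NoDox (-1.38 ± 0.09, adjusted p = 4.61e-11). TBR1, a T-box factor of early pallial neurons, went from 13.2, 8.79 and 6.96 CPM to 62.9, 56.4 and 54.4 CPM (2.58 ± 0.22, adjusted p = 2.01e-08). Beside the 62.2 ± 8.29 CPM of NoDox at 48 h, the gap was -0.10 ± 0.19 and did not pass (adjusted p = 0.762). NR2E1 (1.06 ± 0.17), EMX1 (1.57 ± 0.37), LHX9 (1.44 ± 0.31) and GLI3 (0.44 ± 0.09) rose as well. The proneural factor NEUROG1 went the other way and fell from 1.81, 1.74 and 2.4 CPM to 0.164, 0.637 and 0.242 CPM (-2.46 ± 0.32), and it fell without the pulse too (-1.99 ± 0.15). LHX2 (-0.50 ± 0.09) and FEZF2 (-0.60 ± 0.07), both progenitor regulators, fell by smaller steps.

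Sequences before the start sites of these genes were searched for TAATTA, the core that many homeodomain proteins bind, in RefSeq promoters of GRCh38.p14. The search covered the 250 bases before the RefSeq start on both strands, and TAATTA is its own reverse complement. RefSeq starts can differ from the gene coordinates of the counts, and the EMX2 and SELE windows below lie inside those coordinates. Of 19655 features tested, 12958 matched a promoter by symbol, and 267 of these held TAATTA (2.06%). It was found in 3 of the 15 matched dorsal pallial regulators (EMX2, NEUROG1 and TBR1), in 2 of 16 matched GABAergic and striatal genes (DLX6-AS1 and EBF1), in 0 of the 13 matched genes among the 15 largest increases and in 2 of the 11 matched genes among the 15 largest decreases (CER1 and SELE). It was in 0 of 12 LGE progenitor regulators and 0 of 9 genes of the ventral pallium. The windows of 5 genes are shown, 3 that rose and 2 that fell, with TAATTA in capitals; a match is a description of letters and not a bound site.
EMX2, chr10:117542686-117542745, plus strand: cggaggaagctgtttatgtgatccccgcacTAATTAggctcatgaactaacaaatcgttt
TBR1, chr2:161416107-161416172, plus strand: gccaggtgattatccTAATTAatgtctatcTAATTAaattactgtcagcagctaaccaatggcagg
DLX6-AS1, chr7:97014239-97014304, minus strand: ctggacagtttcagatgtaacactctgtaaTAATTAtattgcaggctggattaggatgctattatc
CER1, chr9:14722894-14722959, minus strand: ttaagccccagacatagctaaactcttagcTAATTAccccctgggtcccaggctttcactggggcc
SELE, chr1:169734293-169734329, minus strand: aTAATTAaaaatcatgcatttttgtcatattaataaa
The TBR1 window holds the letters at 2 places. The distance from the match nearest to the start was 24 bases in EMX2, 154 in TBR1, 203 in DLX6-AS1, 190 in CER1 and 243 in SELE. EMX2, TBR1 and DLX6-AS1 rose and CER1 and SELE fell. Among other genes named in these results with the letters, NEUROG1 fell, VIM and DCX rose and EBF1 did not pass the test.

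Genes of GABAergic and striatal neurons rose more than they fell. Of 24 tested members 12 rose and 3 fell, beside 29.4% higher and 29.5% lower among all features. The median was 0.56, against -0.02 over all features. Without the pulse the median was 0.09, with 6 higher and 2 lower, beside 21.5% and 19.9% of all features. DLX6-AS1, a noncoding RNA of the DLX5 and DLX6 locus, stood at 40.6, 22.3 and 18.9 CPM at 24 h and 307, 280 and 294 CPM at 48 h (3.42 ± 0.42, adjusted p = 5.18e-06). All late libraries lay above all early ones, and NoDox held 219 ± 57.1 CPM. DLX6 (2.59 to 17.4 CPM, 2.75 ± 0.21) and DLX5 (7.11 to 31.4 CPM, 2.14 ± 0.26), homeobox factors of GABAergic differentiation, rose with it; DLX6-AS1 overlaps DLX6 on the other strand, and the strand setting of the counts is not given, so their reads may not be separate. GAD1, which makes GABA, went from 17.8, 12.3 and 11.6 CPM to 49.9, 43.5 and 44.1 CPM (1.72 ± 0.16, adjusted p = 6.66e-09) and ended above the 27.2 ± 4.9 CPM of NoDox (0.75 ± 0.15, adjusted p = 0.00127). SLC32A1, the vesicular GABA transporter (1.39 ± 0.20), and the retinoic acid receptor RARB (0.248 to 2.48 CPM, 3.31 ± 0.36) rose too. GAD2 (-0.59 ± 0.23), SIX3 (-0.29 ± 0.08) and ARPP21 (-1.22 ± 0.33) were the 3 that fell, of which GAD2 did not pass when Dox 24 h replicate 2 or 3 or Dox 48 h replicate 1 or 2 was left out (adjusted p = 0.0587 to 0.101). Striatal neuron genes proper were low, DRD2 at 3.3 and 3.72 CPM and PENK at 0.173 and 0.318 CPM, and neither step passed.

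Among 16 LGE progenitor regulators, 6 rose and 4 fell, with a median of 0.32, beside 29.4% higher and 29.5% lower among all features. MEIS1, a homeobox cofactor, went from 10.5, 7.09 and 6.92 CPM to 67.8, 57.3 and 61.1 CPM (2.92 ± 0.12, adjusted p = 4.37e-17) beside 59 ± 3.27 CPM in NoDox, a gap of 0.07 ± 0.10 that did not pass (adjusted p = 0.662). SP9, a zinc finger factor of LGE neurons (4.67 to 11.8 CPM, 1.32 ± 0.38) and PBX3 (0.98 ± 0.07) rose. DLX1 fell from 129, 98.7 and 89.7 CPM to 55.1, 62.6 and 57.7 CPM (-0.86 ± 0.21), and it fell without the pulse too (-0.86 ± 0.23, difference 0.01 ± 0.31, adjusted p = 0.991). SP8 fell by 0.27. Genes of the ventral pallium and its boundary gave 7 that rose and 1 that fell of 11 (median 0.90), including PAX6 (0.75 ± 0.07), the nuclear receptor NR4A2 (2.83 ± 0.21) and NRG3 (1.93 ± 0.28). Of 9 tested genes of the medial eminence and ventral midline, 1 rose and 3 fell (median 0.04, and -0.11 under library totals alone); NKX2-1 and SHH were at 0.204 and 0.182 CPM at 48 h, near the floor of 0.182 CPM that 3 reads give in the shallowest late library.

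Of 24 progenitor genes tested, 14 rose and 6 fell (median 0.30), beside 29.4% higher and 29.5% lower among all features. VIM, the intermediate filament of radial glia, went from 2116, 2155 and 2116 CPM to 5068, 5522 and 5356 CPM (1.32 ± 0.08), and it rose without the pulse (1.09 ± 0.08, adjusted p of the difference = 0.135). SOX21 (22.6 to 79.3 CPM, 1.81 ± 0.10), PTPRZ1, a receptor phosphatase of radial glia (1.00 ± 0.11), MSI1 (0.81 ± 0.06) and SOX2 (0.55 ± 0.07) rose. For SOX21 and PTPRZ1 the step exceeded the uninduced one, by 1.19 ± 0.13 and 1.44 ± 0.16. NES fell by 0.50.

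Notch pathway genes split evenly, 11 up and 12 down of 25, beside 29.4% higher and 29.5% lower among all features. Their median was 0.07 (-0.09 under library totals alone). The Notch effector HEY1 went from 149, 136 and 146 CPM to 49.8, 48.4 and 48.9 CPM (-1.55 ± 0.07, adjusted p = 3.7e-16). Both groups were tight, and HEY1 was still above the 20.7 ± 1.6 CPM of NoDox at 48 h (1.24 ± 0.08, adjusted p = 6.62e-12). HEYL (-1.15 ± 0.16) and HEY2 (-1.52 ± 0.31) fell with it, while HES4 (0.81 ± 0.09) and RBPJ, the DNA-binding partner of Notch (0.80 ± 0.06), rose. The receptors NOTCH1 (-0.34 ± 0.07), NOTCH2 (-0.58 ± 0.14) and NOTCH3 (-0.38 ± 0.08) all fell.

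Genes that start neurogenesis were mixed, 11 up and 8 down of 28, beside 29.4% higher and 29.5% lower among all features. Their median was 0.03 (-0.13 under library totals alone), and the uninduced arm had 2 up and 16 down. ELAVL3, an RNA-binding protein of newborn neurons (1.37 ± 0.13), SOX11 (0.95 ± 0.06) and MYT1 (0.69 ± 0.14) rose, and NEUROD4, NEUROG1 and NEUROD1 (-0.54 ± 0.12) fell. Without the pulse 7 of 28 postmitotic neuron genes rose and 2 fell (median 0.16), beside 21.5% and 19.9% of all features. With the pulse they moved mostly one way: 22 of 28 rose and 0 fell, with a median of 0.52. At an unadjusted p below 0.05, 1 member was lower, DESeq2 called 0 lower, and library totals alone gave 17 higher and 2 lower. STMN2, a tubulin-binding protein of growing axons, went from 104, 82.7 and 78 CPM to 266, 220 and 205 CPM (1.38 ± 0.22, adjusted p = 4.91e-05). STMN4 (1.63 ± 0.12), NSG1 (1.44 ± 0.20) and GAP43, a growth cone protein (1.38 ± 0.14), had the other leading steps, and DCX, a microtubule protein of migrating neurons, went from 334 to 607 CPM (0.86 ± 0.13). By 48 h the STMN2, STMN4, NSG1 and GAP43 gaps to NoDox were -0.30, -0.09, -0.06 and -0.25, none past the test.

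Adhesion and guidance genes showed wide steps both ways. Among all features 29.4% were higher and 29.5% lower. Of 24 cadherin and protocadherin genes, 16 rose and 4 fell (median 0.59). PCDH20 went from 0.124, 0 and 0.0904 CPM to 2.14, 2.97 and 1.82 CPM (4.90 ± 0.47), with 5 reads in all at 24 h, and had the largest difference from the uninduced step of the genes named (4.42 ± 0.54). CDH7 (2.69 ± 0.24), PCDH11X (2.78 ± 0.25) and PCDH7 (1.84 ± 0.10) rose, while CDH20 (-1.60 ± 0.10) and CDH6 (-1.10 ± 0.12) fell. Of 33 axon guidance genes, 16 rose and 9 fell (median 0.40). DCC, the netrin receptor (26.3 to 108 CPM, 2.03 ± 0.18), NRP1 (2.05 ± 0.19) and the ligand SLIT2 (77.4 to 256 CPM, 1.72 ± 0.11) rose. NTN1, the netrin ligand of DCC (51 to 16.5 CPM, -1.63 ± 0.10), PLXNA4 (-2.04 ± 0.29), NRP2 (-1.07 ± 0.12) and UNC5B (-0.99 ± 0.08) fell. NRP2 and UNC5B rose without the pulse (0.66 ± 0.12 and 0.55 ± 0.08) and ended below NoDox. Of 46 ion channel and receptor genes, 20 rose and 8 fell (median 0.29). GRIA2 and the glutamate receptor subunits GRIN2B (2.84 ± 0.40) and GRIK2 (2.41 ± 0.24) were among those that rose. The potassium channel KCNQ5 rose too (2.47). Its step did not pass with every feature kept, or without Dox 24 h replicate 3 or Dox 48 h replicate 2. The subunits of GABA receptors GABRB2 (0.829 to 4.29 CPM, 2.36 ± 0.27) and GABRA2 (2.74 to 10.4 CPM, 1.93 ± 0.15) rose as well. Those of nicotinic acetylcholine receptors CHRNB4 (-1.75 ± 0.30), CHRNA3 (4.58 to 1.66 CPM, -1.45 ± 0.17) and CHRNA5 (-0.69 ± 0.12) fell, as did the potassium channel KCNQ3 (194 to 76.6 CPM, -1.34 ± 0.14).

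FGF and ERK feedback genes fell more often with the pulse and rose more often without it. With the pulse 7 of 28 rose and 13 fell (median -0.15), and without it 19 rose and 5 fell (median 0.36). Among all features 29.4% rose and 29.5% fell with the pulse, and 21.5% and 19.9% without it. The difference between the steps was negative for 19 and positive for 3, beside 13.1% and 12.7% of all features. FGF8, the ligand of the rostral forebrain, stood at 62.7, 59.3 and 61.7 CPM at 24 h and 22.4, 20.1 and 18.8 CPM at 48 h (-1.58 ± 0.11), while NoDox went from 5.89, 7.93 and 7.31 CPM to 13, 12.5 and 12.1 CPM (0.84 ± 0.13). All pulsed libraries at 24 h were above all others, and the difference of the steps was -2.43 ± 0.17 (adjusted p = 2.14e-11). DUSP6, the phosphatase that switches ERK off, went from 73.6, 86.3 and 82.4 CPM to 38.5, 37.8 and 34.8 CPM with the pulse (-1.12 ± 0.10) and from 11, 14.1 and 13.4 CPM to 28.1, 25.9 and 27.3 CPM without it (1.09 ± 0.11). SPRY2, another feedback inhibitor, went from 142, 166 and 160 CPM to 72.6, 85.8 and 78.2 CPM (-0.99 ± 0.10) against 1.30 ± 0.11 without the pulse. The ETS factors ETV4 (-1.74 ± 0.12 and 0.44 ± 0.15) and ETV5 (-0.72 ± 0.10 and 1.09 ± 0.11), SPRY1 (-0.86 ± 0.07 and 0.61 ± 0.07) and DUSP4 (-0.33 ± 0.07 and 0.70 ± 0.07) likewise fell with the pulse and rose without it, the first value of each pair being the pulsed step. SHISA2, which holds FGF and Wnt receptors back, was the largest exception, with 17.7 and 83.7 CPM (2.24 ± 0.08) against -0.61 ± 0.07 without the pulse.

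Of 36 Wnt pathway genes, 8 rose and 14 fell (median -0.17), beside 29.4% higher and 29.5% lower among all features. Among the ligands WNT7A rose and WNT7B fell, from 280, 286 and 293 CPM to 90.2, 107 and 97 CPM (-1.55 ± 0.11). LGR5, a receptor of R-spondins, rose from 4.38 to 14.9 CPM (1.76 ± 0.13). Of 36 BMP and TGF-beta pathway genes, 14 rose and 9 fell (median 0.21), beside the same 29.4% and 29.5% of all features. The inhibitors did not move together: GREM1 (0.762 to 8.17 CPM, 3.41 ± 0.42) and FST (32.5 to 123 CPM, 1.92 ± 0.08) rose, and CER1 and NOG (-0.96 ± 0.09) fell. BMP2, a ligand named for the difference of the steps, went from 74, 69.4 and 66.6 CPM to 23, 24.7 and 20.3 CPM with the pulse (-1.63 ± 0.09) and rose without it (0.75 ± 0.11). The target genes ID2 (-1.23 ± 0.10) and ID3 (-1.07 ± 0.15) fell, and SMAD9 rose (1.02 ± 0.12). Of 15 retinoic acid pathway genes 5 rose and 5 fell, beside the same 29.4% and 29.5% of all features. STRA6, the retinol uptake receptor, went from 48, 37.8 and 39.2 CPM to 16.3, 13.8 and 16.6 CPM (-1.42 ± 0.10).

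Most DNA replication and G1/S genes fell in both arms. With the pulse 21 of 28 fell and 2 rose (median -0.61), and without it 22 fell and 2 rose (median -0.57). UHRF1, which carries DNA methylation through replication, had the largest step, from 72.9, 76.1 and 85.3 CPM to 24.3, 27.1 and 28.9 CPM (-1.54 ± 0.10, adjusted p = 2.37e-13). It fell less without the pulse (-0.57 ± 0.09, difference -0.98 ± 0.13). PCNA, the replication clamp, went from 88.7, 113 and 115 CPM to 43.7, 50.7 and 48.1 CPM (-1.15 ± 0.10), and CDC45 (-1.27 ± 0.11) and CCNE1 (-1.16 ± 0.13) fell too. MCM2 to MCM7, the subunits of the replicative helicase, all fell, by 0.25 (MCM5) to 0.77 (MCM6). CCND1 and CCND2, cyclins of the G1 phase, parted: CCND1 went from 385, 395 and 410 CPM to 185, 201 and 197 CPM (-1.03 ± 0.07) where the uninduced step did not pass (0.17 ± 0.07), and CCND2 rose from 232 to 359 CPM (0.63 ± 0.06). CDT1, a licensing factor, was the other riser (0.47 ± 0.08).

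Upstream of many of these genes the letters TTTGGCGC or TTTCCCGC were found, both forms of the site of E2F factors, which drive the G1/S genes. In the 250 bases before the start, on either strand, 11 of the 22 replication genes with a RefSeq promoter held at least 1 of the forms (CDT1, E2F1, E2F2, GINS2, MCM3, MCM6, MCM7, PCNA, POLA1, TYMS and UHRF1), against 390 of all 12958 promoters (3.01%). Of 22 matched G2 and M phase genes, 2 held one. The windows of 5 are shown because 4 of them fell and CDT1 rose, with the match in capitals, in either orientation (GCGGGAAA is TTTCCCGC read on the other strand).
UHRF1, chr19:4909457-4909500, plus strand: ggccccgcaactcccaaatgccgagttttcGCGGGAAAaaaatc
PCNA, chr20:5126644-5126711, minus strand: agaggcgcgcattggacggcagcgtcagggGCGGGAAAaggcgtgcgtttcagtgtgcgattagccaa
MCM3, chr6:52284879-52284946, minus strand: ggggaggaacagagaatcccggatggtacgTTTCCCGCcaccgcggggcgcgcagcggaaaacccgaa
MCM6, chr2:135876496-135876563, minus strand: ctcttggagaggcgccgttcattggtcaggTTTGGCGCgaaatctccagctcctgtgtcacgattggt
CDT1, chr16:88803724-88803788, plus strand: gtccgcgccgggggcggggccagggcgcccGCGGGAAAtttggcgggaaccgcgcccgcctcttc
MCM3 (141 to 86.1 CPM, -0.71 ± 0.06) and MCM6 (89 to 52 CPM, -0.77 ± 0.07) fell and CDT1 rose (34.1 to 47 CPM). TAATTG, the E-box CACGTG and the ETS site ACCGGAAG were searched in the same way and were held by 4.13%, 8.53% and 3.09% of all promoters, and in the 15 dorsal pallial promoters by none.

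G2 and M phase genes differed between the arms. With the pulse 15 of 27 fell and 1 rose (median -0.22), and without it 17 rose and 6 fell (median 0.31). Among all features 29.5% fell and 29.4% rose with the pulse, and 21.5% rose and 19.9% fell without it. The difference between the steps was negative and past the test for 19 of the 27, beside 13.1% of all features. MKI67, the proliferation marker, went from 358, 330 and 310 CPM to 111, 149 and 159 CPM (-1.25 ± 0.18), beside 234 ± 5.45 CPM in NoDox at 48 h. HMMR (-1.19 ± 0.07), CENPF (-1.11 ± 0.08) and BUB1B (-0.94 ± 0.07), all of the mitotic spindle or kinetochore, fell too. CCNB1, the mitotic cyclin, fell from 155, 166 and 162 CPM to 102, 115 and 112 CPM (-0.55 ± 0.08) and rose without the pulse (0.41 ± 0.08), and PLK1 did the same (-0.42 ± 0.07 and 0.43 ± 0.07). Of 17 CDK inhibitor and cell cycle exit genes, 11 rose and 1 fell (median 0.26). GADD45A (26.9 to 83.7 CPM, 1.64 ± 0.14), the INK4 inhibitor CDKN2C (1.63 ± 0.20) and p27, CDKN1B (82.8 to 159 CPM, 0.94 ± 0.08), were among them.

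**Figure D3:**
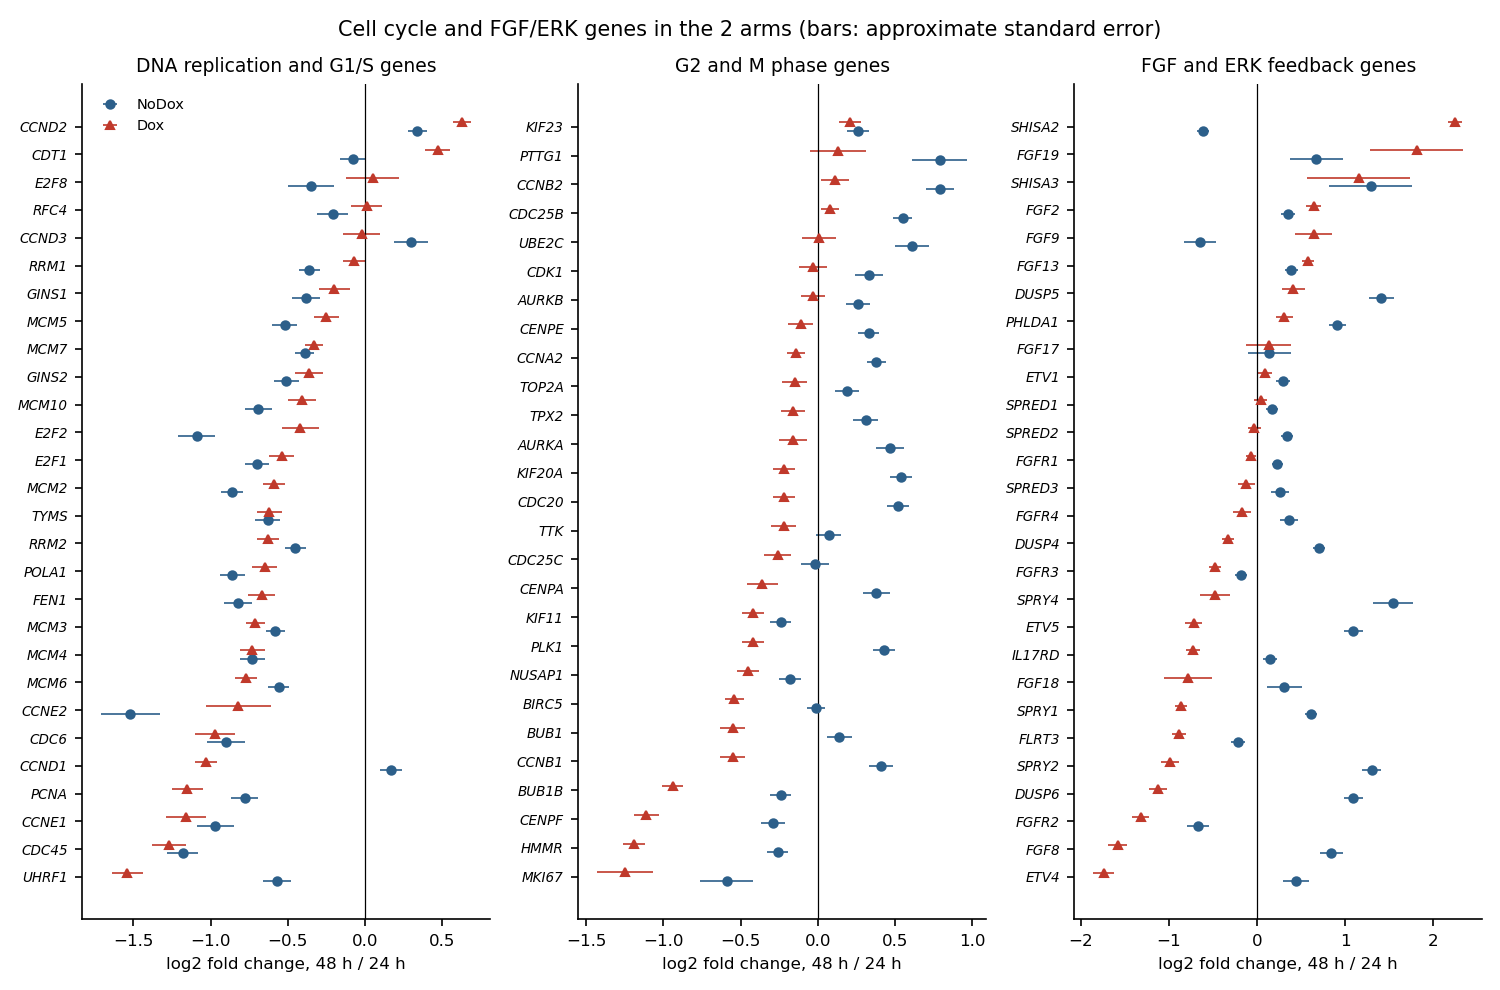
Log2 fold change from 24 h to 48 h for each tested member of 3 lists, with Dox as red triangles, NoDox as blue circles and bars for the approximate standard error. Most replication genes lie left of 0 in both arms, with medians of -0.61 and -0.57. Most G2 and M phase genes and most FGF and ERK feedback genes lie further left with Dox than with NoDox.

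Genes of protein synthesis and of the respiratory chain moved apart. All 41 tested cytosolic ribosomal protein genes rose with the pulse (median 0.77), 39 rose without it (median 0.43), and the difference passed for 8. RPS27 went from 413, 399 and 382 CPM to 791, 725 and 710 CPM (0.90 ± 0.15). These genes have many processed pseudogenes, so how their reads were shared out is uncertain. Of 13 genes encoded in mitochondrial DNA, 11 fell (median -0.48), most of all MT-CYB, from 1006, 1165 and 1055 CPM to 449, 495 and 510 CPM (-1.15 ± 0.09, and -0.98 ± 0.09 without the pulse). Nuclear-encoded respiratory chain genes did not follow, with 15 up and 5 down of 34 and a median of 0.13 that was -0.03 under library totals alone.

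Immediate early genes, the first genes switched on by growth factors and activity, mostly rose in both arms, 16 of 21 with the pulse and 14 without it (medians 0.89 and 0.68). CCN1, a matricellular protein, went from 142, 167 and 148 CPM to 649, 714 and 653 CPM (2.14 ± 0.07). NR4A1 (83.3 to 338 CPM, 2.02 ± 0.08), NR4A3 (1.80 ± 0.17), ATF3 (1.58 ± 0.13), JUN (1.06 ± 0.07) and FOS (0.72 ± 0.21) rose too. IER3 was the only one that fell, from 131, 159 and 154 CPM to 70, 81.9 and 76.8 CPM (-0.96 ± 0.12), and it rose without the pulse (1.05 ± 0.12). ATF4 stress response genes fell more than they rose, 13 against 8 of 26 (median -0.28), with the serine synthesis enzymes PSPH (-1.61 ± 0.10) and PHGDH (-0.73 ± 0.07) among those that fell and the stress factor DDIT3 among those that rose (1.37 ± 0.16). Heat shock genes divided, 9 up and 6 down of 18, beside 29.4% higher and 29.5% lower among all features. HSPA8, the constitutive HSP70, fell from 856, 1042 and 1057 CPM to 438, 438 and 452 CPM (-1.15 ± 0.07), and DNAJA1, its partner, fell too (-1.03 ± 0.09).

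Of 26 hypoxia and glycolysis genes, 12 rose and 5 fell, beside 29.4% higher and 29.5% lower among all features. Their median was 0.19 (0.22 without the pulse). NDRG1 (168 to 411 CPM, 1.29 ± 0.12) and VEGFA (426 to 807 CPM, 0.92 ± 0.08) were among those that rose. VEGFA, the ligand of KDR, thus rose while KDR fell. Cholesterol synthesis genes gave 14 up and 6 down of 25 (median 0.26, and 0.24 without the pulse). Extracellular matrix genes gave 19 up and 5 down of 37 (median 0.19), with COL5A2 (208 to 616 CPM, 1.57 ± 0.07) and LOX, a collagen crosslinking enzyme (2.16 ± 0.20), up and LOXL1 down (-1.46 ± 0.09).

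**Figure D4:**
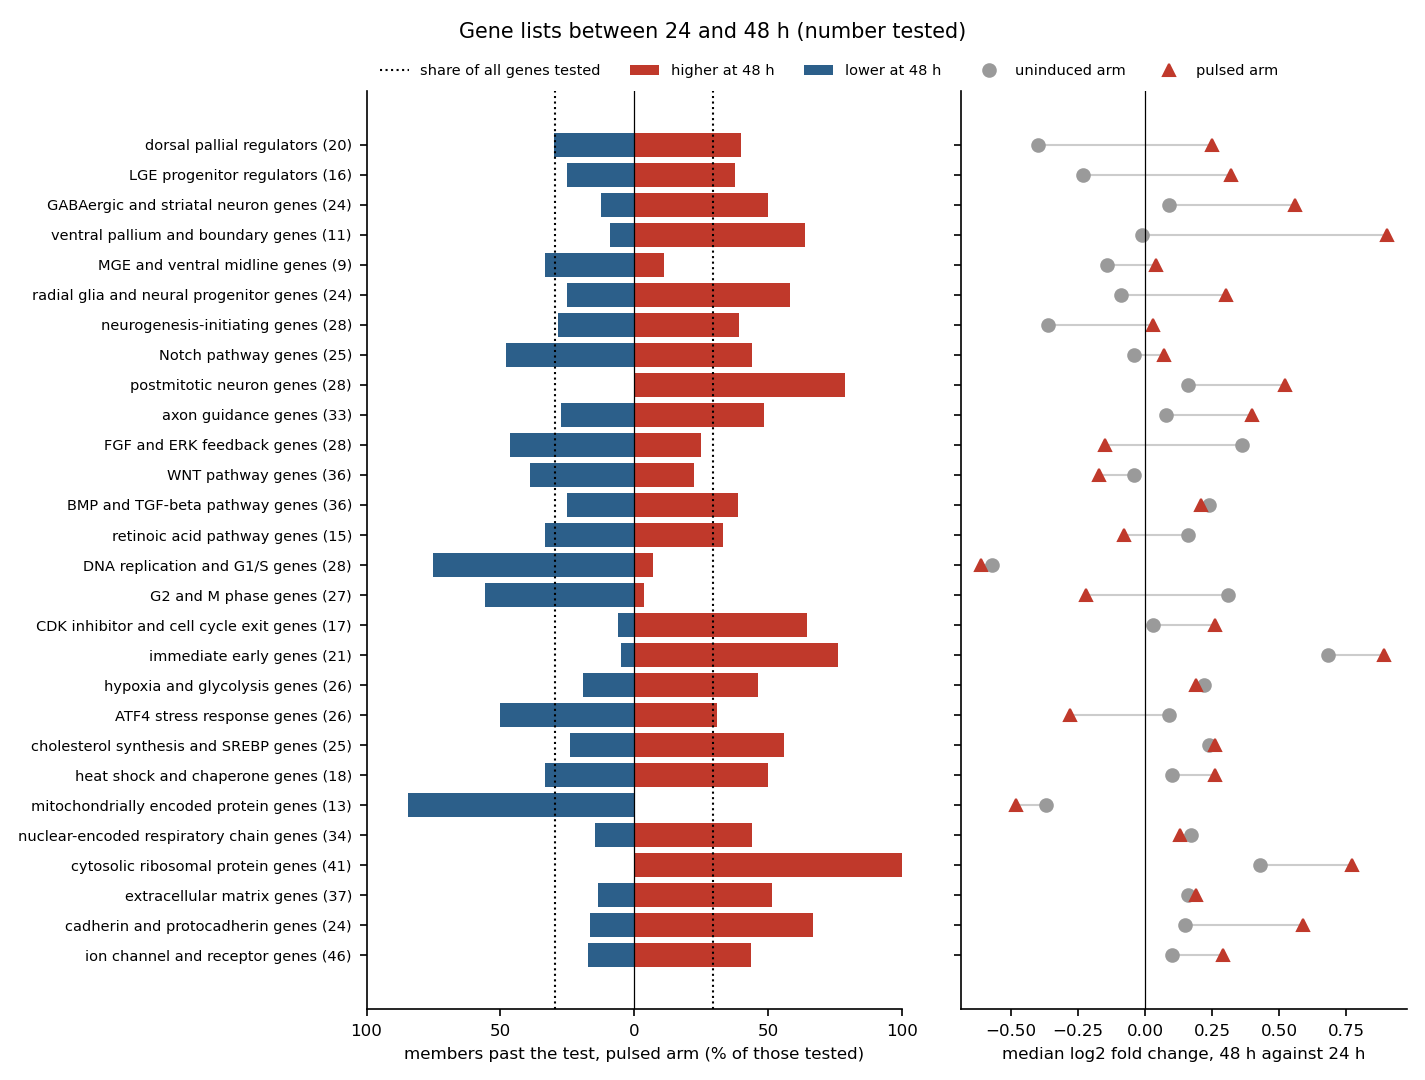
Left, share of tested members of each gene list that were higher (red) or lower (blue) at 48 h than at 24 h in the pulsed arm, with dotted lines at the 29.4% and 29.5% of all features tested; the number tested is in brackets. Right, median log2 fold change of each list in the pulsed arm (triangles) and the uninduced arm (circles). Postmitotic neuron and ribosomal protein genes lie to the right with no member lower, and replication and mitochondrially encoded genes to the left.

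Markers of other cells moved as well, and their part in the results above was not tested. The counts of all these marker lists stand beside 29.4% higher and 29.5% lower among all features. Of 16 endothelial and blood markers, 8 were tested, and 6 of these fell (median -1.82): KDR, SELE, CDH5 (-2.59 ± 0.66), TEK (-2.42 ± 0.35), TIE1 (-1.21 ± 0.20) and VWF (-1.20 ± 0.33). Their summed level was 55.1 to 74.2 CPM at 24 h and 7.34 to 9.87 CPM at 48 h, most of it KDR and SELE. EMCN, HBG1 and HBA1 had no read in the 6 libraries, and PECAM1 and the other untested members had at most 7 reads in a library. CDH5, which defines endothelial cells, was at 0.33, 0.348 and 0.769 CPM at 24 h, while KDR averaged 37.9 ± 4.58 CPM.

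Neural crest markers gave 2 up and 5 down of 8 tested, with a summed level of 73.6 to 87.6 CPM at 24 h and 76.8 to 86.7 CPM at 48 h; FOXD3, TFAP2B, PAX3 and TWIST1 were too low to be tested. Epithelial markers gave 1 up and 4 down of 9, with sums of 489 to 625 CPM at 24 h and 442 to 487 CPM at 48 h, most of it KRT8, KRT18, KRT19 and CLDN6. KRT18 fell (-1.05 ± 0.11) where it rose without the pulse (0.67 ± 0.11). Mesenchymal markers gave 5 up and 1 down of 8, with sums of 1633 to 2131 CPM at 24 h and 2180.0 to 2648 CPM at 48 h, most of it COL1A1 and COL1A2. Of 9 oligodendrocyte lineage markers 4 fell. None of the oligodendrocyte, endothelial or mitochondrial genes rose by edgeR or DESeq2, and 0 were higher at an unadjusted p below 0.05. Astrocyte markers gave 3 up and 4 down of 9, and pluripotent stem cell markers 3 and 3 of 7. The sums were 851 to 996 CPM at 24 h and 806 to 827 CPM at 48 h for oligodendrocyte markers, 303 to 322 CPM at 24 h and 306 to 321 CPM at 48 h for astrocyte markers and 328 to 345 CPM at 24 h and 266 to 271 CPM at 48 h for pluripotent stem cell markers. Markers of the hem, roof plate and choroid plexus gave 3 up and 5 down of 12 (sums of 701 to 812 CPM at 24 h and 751 to 795 CPM at 48 h), and those of the diencephalon, hypothalamus and eye field 3 and 4 of 14 (sums of 659 to 671 CPM at 24 h and 487 to 529 CPM at 48 h). Midbrain and hindbrain markers gave 3 and 2 of 7 (sums of 28.6 to 34.4 CPM at 24 h and 34.8 to 37.7 CPM at 48 h, with EN1 at 0 reads). Mesoderm and endoderm markers gave 3 and 1 of 7 (sums of 66.1 to 78.6 CPM at 24 h and 52.6 to 61.6 CPM at 48 h, with SOX17 and FOXA2 at 0 reads). Most of the latter sums was CXCR4 (58.2 and 36.9 CPM), followed by EOMES (9.1 and 13.3 CPM). In NoDox EOMES was higher, at 90 and 48.5 CPM.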

How the data were processed

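Poly(A) RNA of 21 libraries, 7 groups of 3, was sequenced. The authors deposited raw read counts per gene, made with STAR 2.7.9 and Subread 2.0.3 on hg38 per the submitters' processing notes, which also name DESeq2. The gene annotation was not given in the sources used here, nor was the strand option of the counting. The authors' normalized signal, counts divided by 1 factor per sample, was used only as an alternative.

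From the deposited counts, edgeR 4.0.16 (R 4.3.3) kept 19655 of 61268 features (filterByExpr), scaled by TMM and fitted all 7 groups at once with its robust quasi-likelihood F test, with 14 residual df and a common biological CV of 7.24%. P-values were adjusted by Benjamini-Hochberg over all features tested. The approximate standard error is the log2 fold change divided by the root of F, and a fold change of a gene with few reads depends on the fit's prior count. On simulated counts the fit recovered 85% of genes changed by a log2 fold of 1 and 99% by 2 for the pulsed step, and 75% and 97% for the difference of steps, with 15 and 14 false calls over 19221 genes. The simulation changed only a small random set of expressed genes, in the Dox 48 h group alone, and left all others unchanged. The real step changed far more genes, so these values do not give the error rate of its calls.

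Named genes are the transgene and GSX2, the 15 largest changes in each direction of the pulsed step and the 8 largest in each direction of the difference (averaging at least 5 CPM in the higher of the 2 Dox groups for the step, with replicates apart, and in the highest of the 4 groups for the difference; clone-style, antisense and small RNA names left out), up to 4 members of each of 39 lists, and other list members with their values. Members and lists were chosen with earlier results of these data known. Coordinates are those of the count table (hg38). A few genes are not reported here. Promoters are RefSeq's of GRCh38.p14, matched by symbol. Alternatives used limma 3.58.1 and DESeq2 1.42.0.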

Additional observations from a re-analysis of the deposited data

Results flagged for a closer look

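The step from 24 to 48 h differed between the pulsed and the uninduced arm for 2491 features that moved further up with the pulse and 2573 that moved further down, by the test of the difference in edgeR's quasi-likelihood fit. The 8 largest positive and the 8 largest negative differences among genes that averaged at least 5 CPM in the highest of the 4 groups are given as log2 values, pulsed step minus uninduced step, followed by group means over 3 libraries. Among the positive ones, PCDH20 differed by 4.42 (0.0713 to 2.31 CPM with the pulse and 6.51 to 9.19 CPM without it), and its cadherin relative PCDH11X by 3.50 (1.04 to 7.26 CPM with the pulse and 6.9 to 4.23 CPM without it). CCSER1 differed by 3.81 (0.471 to 6.44 CPM with the pulse and 8.77 to 8.39 CPM without it), FSTL5 by 3.78 (0.428 to 8.74 CPM with the pulse and 11.9 to 17.4 CPM without it) and GPR149 by 3.70 (0.883 to 14.5 CPM with the pulse and 21.2 to 26.6 CPM without it). ROBO2 differed by 3.52, THSD7A by 3.51 (0.588 to 4.2 CPM with the pulse and 6.87 to 4.3 CPM without it) and WNT7A by 3.48.

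Among the negative ones, KDR differed by -4.31, METTL7A by -3.85 (6.11 to 0.482 CPM with the pulse and 0.584 to 0.677 CPM without it), FAM181B by -3.31 and L1TD1 by -2.67. RASL12 differed by -2.45 (8.92 to 5.09 CPM with the pulse and 0.842 to 2.59 CPM without it) and ADAMTS15, a secreted protease of the matrix, by -2.37 (47.2 to 12.8 CPM with the pulse and 10.1 to 14 CPM without it). For the ligands FGF8 and BMP2 the differences were -2.43 and -2.37, and both fell with the pulse and rose without it. With 3 libraries in a group, no library was tested for standing apart from its group.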

How the results depend on the processing

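The counts of features called in the pulsed step, the uninduced step and their difference were within 1.5 times of the reported ones with DESeq2's size factors, its Wald test, every feature kept, limma on the authors' normalized values, a fit of only the groups compared, and library totals alone, the last chosen after seeing the data. Library totals alone moved the gap at 48 h to 1017 higher and 2835 lower. Testing for changes beyond 1 on the log2 scale, stricter by construction, called 443 higher and 466 lower in the pulsed step, 27 and 29 in the uninduced step, 125 and 64 for their difference, 224 and 293 for the gap at 24 h and 8 and 20 for the gap at 48 h. Leaving out 1 replicate gave 5022 to 5501 higher and 5278 to 5634 lower in the pulsed step, and 1041 to 1640 higher at 48 h against NoDox. With the replicate number as a block, the pulsed step had 5801 higher and 5800 lower. Same-numbered libraries of 24 and 48 h had deviations that correlated weakly, at 0.0375, 0.0325 and 0.0071. Each Dox library at 24 h correlated best with its own number at 48 h, but Dox 48 h replicate 3 did so with replicate 2 at 24 h (0.0101). Whether the libraries are paired cannot be told from these values or from the labels. DLX2 passed under that block in edgeR's fit (0.34, adjusted p = 0.00465), as did COL1A1 among the genes named, and no other call of a named gene changed under it. Leaving out 1 replicate ended or added 3 to 6 calls among 257 named genes and list members, and no call among them turned its direction in any of these settings. Depth limits genes of a few reads: 3 reads are 0.182 CPM in the shallowest library at 48 h.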

Other observations

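Some genes outside the lists of forebrain and signalling genes also crossed over between 24 and 48 h, and were picked after their values were seen. LUM, which encodes the matrix proteoglycan lumican, averaged 0.837 CPM at 24 h and 5.25 CPM at 48 h, beside 2.72 and 3.03 CPM in NoDox, so that its gap turned from -1.69 ± 0.28 to 0.79 ± 0.23 (adjusted p = 1.59e-05 and 0.0138 in edgeR's fit). NID2, a basement membrane protein, crossed the other way, with 4.66 CPM at 24 h and 2.49 CPM at 48 h, beside 3.32 and 5.49 CPM in NoDox and gaps of 0.49 ± 0.16 and -1.14 ± 0.18. CSPG4, the NG2 proteoglycan, did the same, with 13.8 CPM at 24 h and 6.77 CPM at 48 h, beside 7.2 and 10.4 CPM in NoDox and gaps of 0.93 ± 0.12 and -0.61 ± 0.14.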
